A study of Mus musculus with 9 samples.

Results

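The 10 genes followed here belong to the interleukin-6 (IL-6) cytokine family and its signal path, measured across mouse knee joints: the ligand genes Il6, Osm, Il11 and Lif, the receptor genes Il6st, Il6ra, Osmr and Lifr, the transcription factor gene Stat3 and the feedback inhibitor gene Socs3. They are the rows of the deposited count tables whose Ensembl ID carries one of these symbols in the GRCm38 annotation, 10 of 53379 gene IDs, and all 10 were among the 17478 genes tested after a filter on low counts. RNA came from knee joints in 3 groups of 3 libraries. Non surgery joints had no operation. Luc joints came from male C57BL/6 mice whose anterior cruciate ligament was cut at 8 weeks of age, a surgical model of osteoarthritis, and which received a lentivirus expressing Luc into the joint 1 week later. PC2 joints had the same operation at the same age and a lentivirus expressing PC2 in place of Luc, and both operated groups were collected 8 weeks after the virus. The strain, sex and age of the Non surgery mice are not stated separately, and neither a virus injection nor a sham operation is described for them, so operation, virus and pool cannot be told apart in a comparison with them. The labels' protocols describe the 3 libraries of a group as technical repeats made from 1 mix of RNA; the number of mice in a mix is not stated there. Each group is thus 1 pool, and the p-values and intervals below measure the spread between repeats of a pool, not between mice.

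The cytokines of this family share a signal-transducing receptor chain, the product of Il6st. A ligand brings that chain together with a partner: IL-6 first binds the receptor chain encoded by Il6ra, oncostatin M (Osm) uses the products of Osmr or Lifr, and leukaemia inhibitory factor (Lif) uses that of Lifr. The assembled receptors activate JAK kinases, which phosphorylate STAT3, and STAT3 then switches on genes that include Socs3, whose product binds the receptor complex and shuts the signal off. In joints, IL-6 and oncostatin M are known as products of inflamed synovium and of infiltrating leukocytes, and both can drive loss of cartilage matrix.

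The 4 windows of sequence below come from the 250 bases before a transcription start of Il6, Lif, Il11 and Socs3. They are shown because they hold short motifs of factors known to act on these genes. The counts of Il6, Il11 and Socs3 differed between groups, whereas a difference of Lif was not settled. The windows are the bases before the RefSeq start (GRCm38.p6), given 5′ to 3′ on the gene's own strand. They are cut where an annotated exon overlaps them. The stretches of Lif and Socs3 are thus the first 239 and 165 of the 250 bases and end short of the start. Il11 has another window at a different start, which held no match and is not printed. Capitals mark matches to the AP-1 motif TGANTCA, the NF-kB motif (GGGA, any base, TTTCC), the C/EBP motif TTGNGCAA or the STAT motif TTCNNNGAA. The Il6 window is chr5:30012864-30013113 (plus strand), Lif is chr11:4257318-4257556 (plus strand), Il11 is chr7:4778142-4778391 (minus strand) and Socs3 is chr11:117969452-117969616 (minus strand), the last 2 inside the longer gene models of GENCODE.
Il6: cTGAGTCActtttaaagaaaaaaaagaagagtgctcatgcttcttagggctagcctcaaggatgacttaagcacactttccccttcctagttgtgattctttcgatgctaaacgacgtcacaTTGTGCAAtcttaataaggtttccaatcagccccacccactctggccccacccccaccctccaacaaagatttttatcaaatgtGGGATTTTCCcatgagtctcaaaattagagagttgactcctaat
Lif: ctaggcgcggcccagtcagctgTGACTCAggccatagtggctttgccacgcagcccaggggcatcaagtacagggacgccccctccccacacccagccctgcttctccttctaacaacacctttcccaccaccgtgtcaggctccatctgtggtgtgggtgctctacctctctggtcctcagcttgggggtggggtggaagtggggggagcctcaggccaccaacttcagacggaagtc
Il11: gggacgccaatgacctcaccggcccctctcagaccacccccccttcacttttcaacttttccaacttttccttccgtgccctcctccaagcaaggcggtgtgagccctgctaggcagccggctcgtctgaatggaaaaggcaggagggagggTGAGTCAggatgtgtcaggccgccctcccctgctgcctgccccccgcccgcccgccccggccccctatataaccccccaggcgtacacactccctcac
Socs3: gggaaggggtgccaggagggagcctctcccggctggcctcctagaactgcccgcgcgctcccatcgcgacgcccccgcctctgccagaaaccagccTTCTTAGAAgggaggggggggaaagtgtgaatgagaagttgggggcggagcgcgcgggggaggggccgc

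The 4 motifs and the cyclic AMP response element TGACGTCA, which was found in 0 of the members' windows, were searched on both strands in the 250 bases before the start, in 11 windows of 9 members; Osm was not among the windows used here. The motifs were picked after the windows had been read. AP-1, the dimer of Fos and Jun proteins, had its motif in 3 of the 11 windows, one each of Il6, Lif and Il11, against 6.75% of 32851 windows of all genes. In Il6 the match TGAGTCA began 249 bases before the start, in Lif TGACTCA began 228 bases before it and in Il11 TGAGTCA began 98 bases before it. The NF-kB motif was in the Il6 window (GGGATTTTCC, 44 bases before the start) and in 0.356% of all windows, and the C/EBP motif was in the Il6 window (TTGTGCAA, 128 bases before) and in 2.61% of all. The STAT motif was in 1 of the 11 windows, that of Socs3 (TTCTTAGAA, 154 bases before), against 7.02% of all. A match describes the letters only and does not show that a factor was bound there.

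Library totals were 17835989 to 19004316 counts, and counts were scaled to a common total with TMM factors (CPM). The samples held the markers of their labelled tissue: 6 chondrocyte markers summed to 649.3 to 755.2, 4217 to 4302 and 6633 to 6774 CPM, 6 osteoblast markers to 3521 to 3890, 13020 to 13590 and 16070 to 16290 CPM, and 6 endothelial markers to 461.8 to 487.5, 478.4 to 480.4 and 378.4 to 381.9 CPM in Non surgery, Luc and PC2. Each of these markers was detected. Summed levels of 6 skeletal muscle markers were higher than those of these lists. They were 49030 to 50310, 18980 to 19360 and 21490 to 21640 CPM in the same order of groups. Of 6 hepatocyte genes, Ttr was at 0 in all 9 libraries and Alb averaged at most 0.535 CPM in a group; the 6 summed to 25.1 to 52.1 CPM, of which Cyp2e1 made up nearly all (means of 27.45, 51.43 and 40.42 CPM in Non surgery, Luc and PC2). Each direction given for PC2 rests on the label.

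Levels of different members were set side by side only after division of the CPM by exon length in kilobases (RPKM). In Non surgery libraries Il6st stood first with 24.1 ± 0.711 RPKM (SD, n = 3), followed by Stat3 with 20.5 ± 0.529, Socs3 with 12.3 ± 0.494, Lifr with 10.9 ± 0.688, Il6ra with 8.36 ± 0.128, Osm with 4.12 ± 0.233 and Osmr with 3.50 ± 0.167 (all in RPKM). Lif (0.599), Il11 (0.371) and Il6 (0.324 RPKM) came last, and the libraries of Il11 and Il6 overlapped. Il6, Il11 and Lif were measured from 9 to 133 counts per library, and the receptor genes from 671 to 6483. In Luc libraries the order changed at the top: Socs3 stood first with 53.7 ± 0.685 RPKM, above Il6st (30.4 ± 0.354) and Stat3 (21.3 ± 0.108). Osm reached 14.8 ± 0.851 RPKM and overlapped Lifr (15.7 ± 0.624), and Il6 at 2.25 ± 0.522 RPKM stood above Lif (0.927) and Il11 (0.864), which overlapped each other. In PC2 libraries Socs3 remained first at 29.7 ± 0.577 RPKM, Osm (6.87 ± 0.486) overlapped Il6ra (6.24 ± 0.536), which overlapped Osmr (5.73 ± 0.0879), and Il6 (0.492) overlapped Il11 (0.464).

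**Figure D1:**
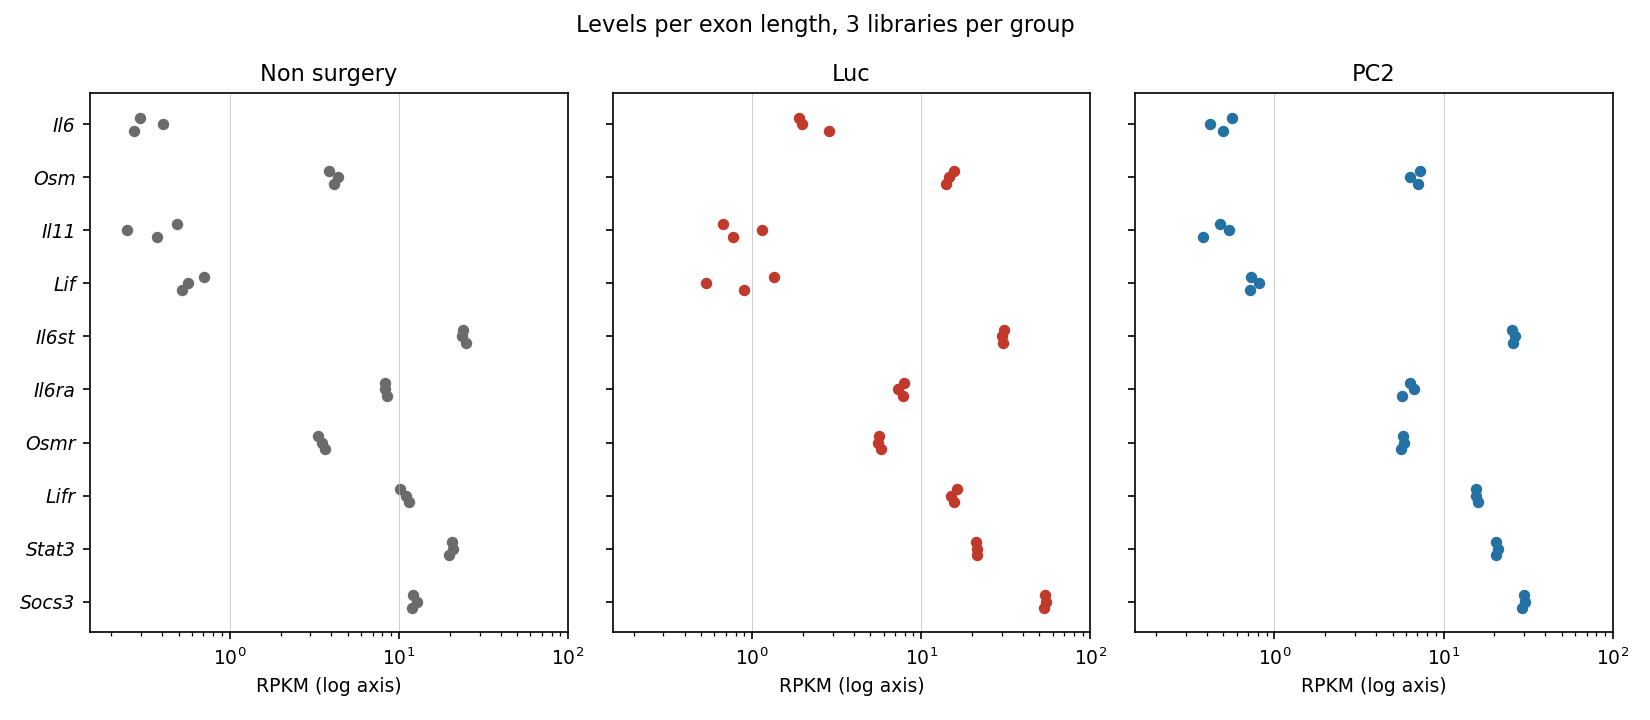
RPKM of the 10 members on a log axis, 1 panel per group, with 3 points per gene for the 3 libraries. Il6, Il11 and Lif lie lowest in each panel, and Socs3 moves from the third place in Non surgery to the first in Luc and PC2 libraries.

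Luc against Non surgery compares operated joints that received the Luc virus with unoperated ones. Ligand and feedback genes were higher in Luc libraries: Il6 rose 6.87-fold, Socs3 4.38-fold, Osm 3.58-fold and Il11 2.32-fold. The receptor genes Osmr, Lifr and Il6st rose by smaller amounts (1.62-fold, 1.43-fold and 1.26-fold), and Stat3 differed by 1.04-fold without passing the test. In joint RNA from mixed cells, more or fewer cells of a type and more or less RNA per cell cannot be told apart. Of the 10 members, 8 rose in the edgeR quasi-likelihood test (Benjamini-Hochberg adjusted p under 0.05 over all genes), against 31.1% of all genes tested (27.7% fell), and 4 rose at least 2-fold, against 9.43%. The 8 include Lif, whose edgeR adjusted p of 0.0496 lay just under the threshold and whose call held in 5 of 12 alternatives. The 2 groups were without overlap for 9 members, and for 62.9% of all genes. The median log2 fold change of the members was 0.66, and that of all genes 0.025. Members were chosen with earlier results of these data known, so these counts are a description.

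PC2 against Luc compares operated joints given the 2 viruses, with 1 pool for each, so virus and pool cannot be told apart here either. Il6 fell 4.56-fold, Osm 2.15-fold, Il11 1.85-fold and Socs3 1.81-fold in the PC2 libraries, while Osmr, Lifr and Stat3 did not pass the test. Il6ra fell 1.23-fold and Il6st 1.18-fold. Of the 10 members, 6 fell (edgeR, adjusted p under 0.05), against 18.6% of all genes tested (16.1% rose), and 2 of them, Il6 and Osm, fell at least 2-fold, against 2.0%. Libraries did not overlap for 7 members, and for 48.0% of all genes. The median was -0.30 on the log2 scale for the members and 0.008 for all genes. PC2 against Non surgery shares its libraries with both other comparisons: 5 members rose, against 31.5% of all genes, and 1 member, Il6ra, fell, against 31.2%. Socs3 was the 1 member at least 2-fold higher (9.83% of all genes), and 8 members did not overlap (66.0%). The median was 0.43 for the members and 0.01 for all genes.

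**Figure D2:**
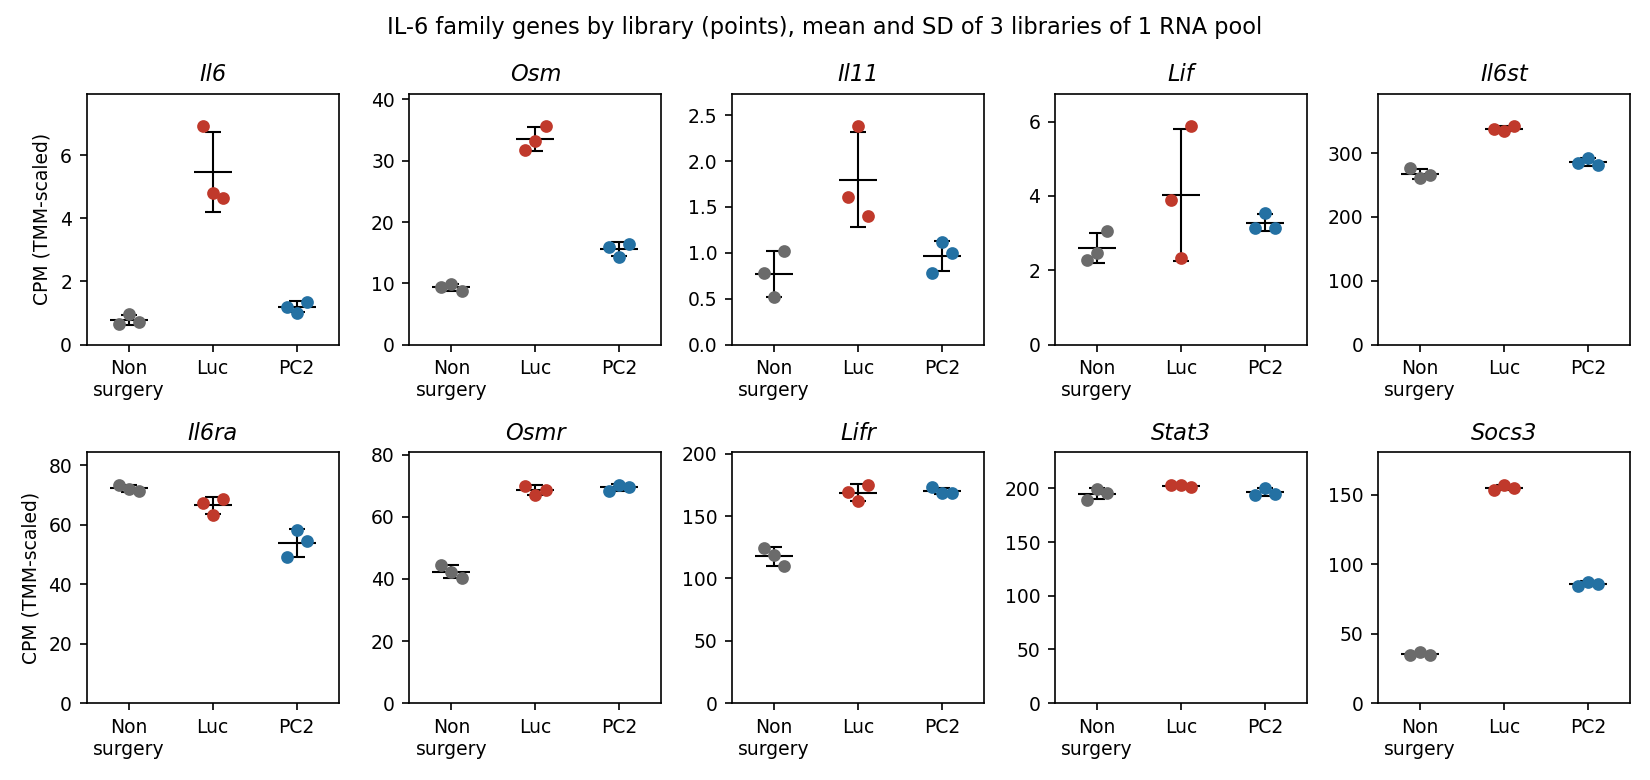
CPM (on TMM-scaled library sizes) of each member in the 9 libraries, with mean and SD per group; each panel has its own linear axis from 0. Il6, Osm, Il11 and Socs3 are highest in Luc libraries, Osmr and Lifr are alike high in Luc and PC2, and Il6ra is lowest in PC2.

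Among the ligands, Il6 (ENSMUSG00000025746, chromosome 5, 30013114 to 30019981) was scarce without surgery, with 0.659, 0.978 and 0.721 CPM in the 3 Non surgery libraries, from 11 to 17 counts each. Luc libraries had 6.91, 4.81 and 4.63 CPM from 86 to 133 counts, and PC2 libraries 1.205, 1.015 and 1.36 CPM from 20 to 26 counts. Every Luc library was above every other library, and the lowest PC2 library was just above the highest Non surgery library. The log2 fold change of Il6 was 2.78 ± 0.244 (SE) for Luc against Non surgery (edgeR, adjusted p = 3.88e-08) and -2.19 ± 0.22 for PC2 against Luc (adjusted p = 1.11e-06). Against Non surgery the PC2 libraries stood 0.59 ± 0.308 higher, which did not pass (edgeR, adjusted p = 0.106), with a 95% interval from 0.958-fold to 2.38-fold. With scaling by library size only, this last difference passed at 0.75 (adjusted p = 0.0412; 0.0412 to 0.248 over 12 alternatives).

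Osm (ENSMUSG00000058755, chromosome 11, 4236420 to 4241026), which encodes oncostatin M, was the most abundant of the 4 ligand members per exon length in each group. It had 9.35, 9.89 and 8.83 CPM in Non surgery, 31.8, 33.2 and 35.6 CPM in Luc, and 16.0, 14.4 and 16.5 CPM in PC2 libraries. The 3 groups did not overlap: Luc was highest, PC2 lay between and Non surgery was lowest. The log2 fold changes of Osm were 1.84 ± 0.0801 (SE) for Luc against Non surgery, -1.10 ± 0.0736 for PC2 against Luc and 0.74 ± 0.0854 for PC2 against Non surgery (edgeR, adjusted p = 3.7e-12, 9.95e-09 and 1.19e-06). All 3 calls held in each of the 12 alternatives run.

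Il11 encodes interleukin-11, a ligand known for acting on bone and fibroblasts (ENSMUSG00000004371, chromosome 7, 4772373 to 4782859). Its 9 to 17 counts per Non surgery library gave 0.779, 0.518 and 1.02 CPM, against 1.61, 2.38 and 1.40 CPM in Luc and 0.786, 1.12 and 0.997 CPM in PC2 libraries. All Luc libraries were above those of the other groups, which overlapped each other. Il11 rose by 1.22 ± 0.312 on the log2 scale in Luc against Non surgery (edgeR, adjusted p = 0.00314). It fell by 0.89 ± 0.292 in PC2 against Luc (edgeR, adjusted p = 0.0267; 0.0168 to 0.15 over 12 alternatives), and this call ended with DESeq2 (0.0962), and when Luc replicate 2 (0.15), PC2 replicate 1 (0.0973) or PC2 replicate 3 (0.0619) was left out.

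Lif (ENSMUSG00000034394, chromosome 11, 4257557 to 4272514) is the neighbour of Osm, 16530 bases away on the same strand, and encodes leukaemia inhibitory factor. Its libraries had 2.28, 2.47 and 3.06 CPM in Non surgery, 3.90, 2.33 and 5.87 CPM in Luc and 3.14, 3.55 and 3.15 CPM in PC2. The Luc repeats of Lif spread more than 2-fold and overlapped both other groups. Luc stood 1.54-fold above Non surgery, with an adjusted p of 0.0496 in edgeR that lay just under the threshold. The call of Lif ended in 7 of 12 alternatives (adjusted p from 0.0019 to 0.379). Without Luc replicate 3 the log2 difference was 0.26 in place of 0.63, and without Luc replicate 1, Non surgery replicate 1 or Non surgery replicate 2 the adjusted p was 0.0807, 0.137 and 0.104. PC2 against Luc gave -0.29 ± 0.247 for Lif (edgeR, adjusted p = 0.388), with an interval from 0.567-fold to 1.17-fold. This value was -0.57 without Luc replicate 2 (edgeR, adjusted p = 0.0427) and 0.077 without Luc replicate 3 (0.836). No difference of Lif between the PC2 and Luc pools was thus established at these counts.

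The shared receptor chain gene Il6st (ENSMUSG00000021756, chromosome 13, 112464070 to 112510086) had 277, 261 and 265 CPM in Non surgery, 337, 334 and 342 CPM in Luc and 285, 293 and 281 CPM in PC2 libraries. The groups did not overlap, yet they differed by less than 1.3-fold. The log2 fold changes of Il6st were 0.34 ± 0.033 (SE) for Luc against Non surgery and -0.24 ± 0.033 for PC2 against Luc (edgeR, adjusted p = 1.65e-07 and 3.38e-05). Against Non surgery, PC2 libraries were 1.07-fold higher (edgeR, adjusted p = 0.0188; 3.54e-06 to 0.104 over 12 alternatives), and this call ended without Non surgery replicate 2, Non surgery replicate 3 or PC2 replicate 2 (0.0532, 0.062 and 0.104).

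Osmr and Lifr, the partner chains for oncostatin M and leukaemia inhibitory factor, lie 215644 bases apart on chromosome 15 (Osmr, ENSMUSG00000022146, 6813577 to 6874969; Lifr, ENSMUSG00000054263, 7090614 to 7197489). Osmr had 44.4, 42.3 and 40.3 CPM in Non surgery, 70.0, 66.9 and 68.7 CPM in Luc and 68.2, 70.3 and 69.7 CPM in PC2 libraries. Lifr had 124, 119 and 110 CPM, 169, 162 and 175 CPM, and 173, 169 and 169 CPM in the same order. For both genes, every operated library was above every Non surgery library, and the Luc and PC2 libraries overlapped. Osmr rose by 0.69 ± 0.0453 in Luc and by 0.71 ± 0.0452 in PC2 against Non surgery (edgeR, adjusted p = 8.15e-10 and 5.5e-10), and Lifr by 0.52 ± 0.0451 and 0.53 ± 0.0451 (3.34e-08 and 2.4e-08). Between PC2 and Luc the 95% interval ran from 0.95-fold to 1.08-fold for Osmr (edgeR, adjusted p = 0.775) and from 0.945-fold to 1.08-fold for Lifr (0.859). The fall of Osm in PC2 libraries was thus not accompanied by a detected fall of either of these 2 chains. The shared chain gene Il6st and the IL-6 chain gene Il6ra did fall in this comparison, by 1.18-fold and 1.23-fold (edgeR, adjusted p = 3.38e-05 and 0.000499).

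Il6ra, the gene of the chain that binds IL-6 itself (ENSMUSG00000027947, chromosome 3, 89864059 to 89913196), was lower in PC2 libraries than in both other groups. It had 73.4, 72.0 and 71.3 CPM in Non surgery, 67.3, 63.4 and 68.8 CPM in Luc and 49.0, 58.2 and 54.5 CPM in PC2 libraries. The 3 groups did not overlap, with Non surgery highest and PC2 lowest. Il6ra fell by 0.30 ± 0.0554 on the log2 scale in PC2 against Luc and by 0.42 ± 0.0555 in PC2 against Non surgery (edgeR, adjusted p = 0.000499 and 4.97e-06), and both calls held in each of 12 alternatives. Luc against Non surgery gave -0.12 ± 0.0549 for Il6ra (edgeR, adjusted p = 0.0718; 0.0129 to 0.543 over 12 alternatives). That difference passed with median-of-ratios factors, without the filter on low counts and in a fit of the 6 libraries compared, and had the other sign (0.04) when libraries were scaled by size only. Of its exon bases, 2.8% are shared with Gm42809 on the other strand, where reads cannot be assigned without strand.

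Stat3, the transcription factor at the end of the receptor path (ENSMUSG00000004040, chromosome 11, 100885098 to 100939540), had 190, 200 and 195 CPM in Non surgery, 203, 203 and 202 CPM in Luc and 194, 201 and 195 CPM in PC2 libraries. The Luc libraries stood just above the others, and the other 2 groups overlapped. Its fold changes had 95% intervals from 0.991 to 1.09 for Luc against Non surgery, from 0.925 to 1.02 for PC2 against Luc and from 0.962 to 1.06 for PC2 against Non surgery (edgeR, adjusted p = 0.152, 0.337 and 0.737). The calls of Stat3 depended on the scaling: with library size only, Stat3 was 0.22 higher in Luc and 0.17 higher in PC2 than in Non surgery (edgeR, adjusted p = 3.21e-05 and 0.000311), while the median of all genes moved from 0.025 to 0.19 and from 0.01 to 0.17. The mRNA level of Stat3 says nothing of its phosphorylation, which was not measured.

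Socs3, the feedback inhibitor that STAT3 induces (ENSMUSG00000053113, chromosome 11, 117966079 to 117970047), was measured from 574 to 2976 counts per library. It had 34.4, 37.1 and 34.9 CPM in Non surgery, 153, 157 and 155 CPM in Luc and 84.2, 87.6 and 86.1 CPM in PC2 libraries. The groups stood wide apart and the repeats of each pool close together, with PC2 between the others. Socs3 rose by 2.13 ± 0.0415 on the log2 scale in Luc against Non surgery (edgeR, adjusted p = 1.31e-16). It fell by 0.85 ± 0.0385 in PC2 against Luc (edgeR, adjusted p = 9.39e-11) and remained 1.28 ± 0.0417, or 2.42-fold, above Non surgery (adjusted p = 8.48e-14). All 3 calls held in each of 12 alternatives.

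**Figure D3:**
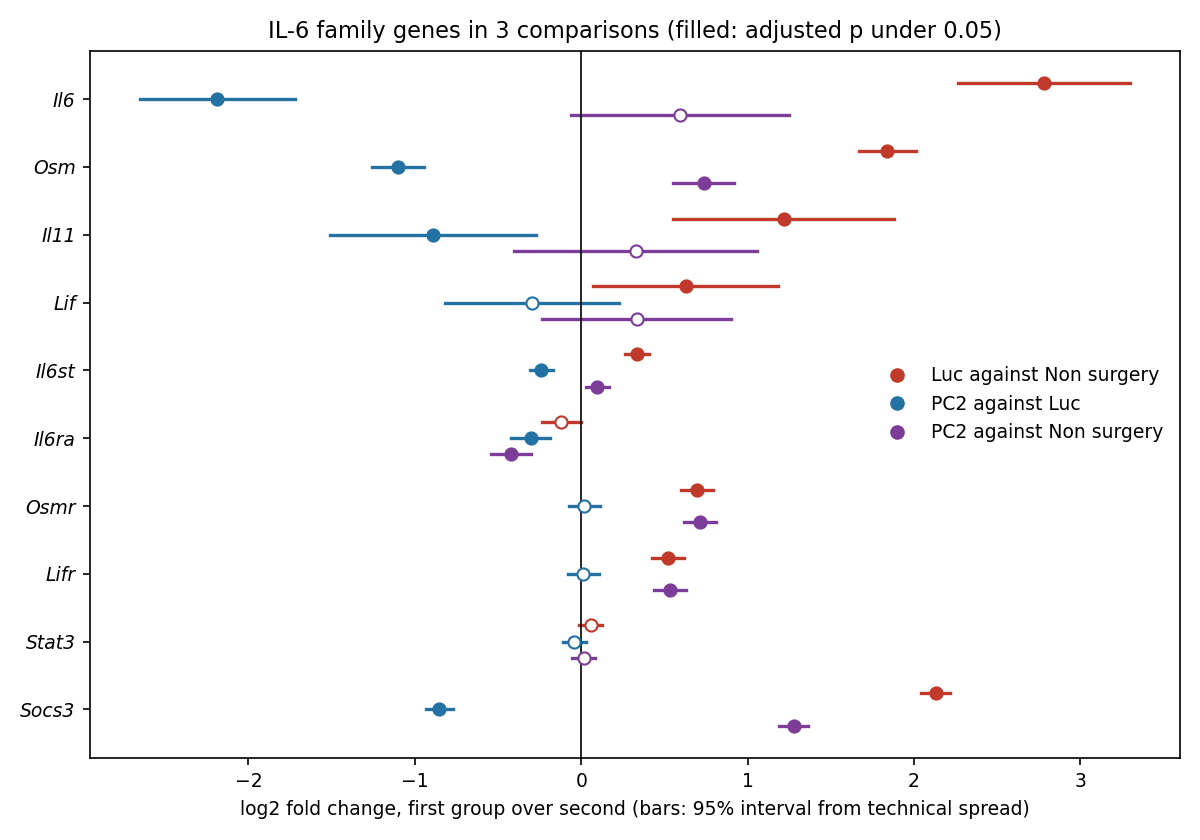
log2 fold changes of the 10 members in the 3 comparisons, with 95% intervals from the technical spread; filled points passed an adjusted p of 0.05. Il6, Osm, Il11 and Socs3 lie right of 0 for Luc against Non surgery and left of 0 for PC2 against Luc, while Osmr and Lifr lie near 0 for PC2 against Luc.

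Immediate-early genes and most endothelial markers were, like Il6, Osm, Il11 and Socs3, higher in Luc libraries than in the others. The 6 immediate-early genes (Fos, Fosb, Egr1, Junb, Atf3 and Ier2), which respond to stress and handling as well as to cytokines, summed to 140.3 to 155.6 CPM in Non surgery, 2183 to 2285 CPM in Luc and 1039 to 1061 CPM in PC2 libraries. All 6 rose in Luc against Non surgery and all 6 fell in PC2 against Luc. Of the 6 endothelial markers, 5 rose in Luc against Non surgery and all 6 fell in PC2 against Luc (edgeR, adjusted p under 0.05), with medians of 0.41 and -0.33 on the log2 scale. Of all genes tested, 31.1% rose in Luc against Non surgery and 18.6% fell in PC2 against Luc. Vwf fell in both comparisons, with a mean of 184.3 CPM without surgery against 99.0 CPM with Luc and 84.97 CPM with PC2. The 6 synovial fibroblast markers summed to 2152 to 2412, 6921 to 7084 and 7330 to 7443 CPM in the same order of groups, and 6 macrophage markers to 2011 to 2071, 2541 to 2682 and 2537 to 2597 CPM. The sum of 6 neutrophil markers was highest without surgery (7656 to 7888 CPM, against 6254 to 6570 in Luc and 6623 to 6737 in PC2). Of these, 5 fell and 1 rose in Luc against Non surgery. The 1 that rose was Ly6g, with means of 29.2, 52.1 and 54.8 CPM in Non surgery, Luc and PC2. The 6 T cell markers summed to 20.4 to 24.95 CPM over all libraries. The part of these levels in the members' differences was not tested.

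The genes whose pattern over the 9 libraries lay nearest were sought among 11850 candidates, by root mean square distance between centred log2 values. For Il6 these were Iigp1 (distance 0.19), an interferon-inducible GTPase gene with 11.7, 60.1 and 17.9 CPM as means of Non surgery, Luc and PC2, Cxcl9 (0.247), a chemokine gene induced by interferon gamma with 5.89, 27.8 and 10.1 CPM, and Olfr810 (0.248), an olfactory receptor gene. For Socs3 they were the matrix genes Fbn1 (0.082; 76.8, 331.4 and 207.7 CPM) and Col12a1 (0.0865), and Bhlhe40 (0.104), a transcriptional repressor gene. For Osmr they were Naglu (0.0423; 23.4, 37.4 and 38.1 CPM), Pgrmc1 (0.0449) and Tulp3 (0.045). The 9 libraries come from 3 pools, so any gene with like group means will lie near.

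Other ligands and receptors of the family moved in both directions. Of 8 other ligand genes, 5 were tested, and Ctf2, Cntf and Il31 stayed below the filter. Of the 5, 2 rose and 1 fell in Luc against Non surgery, where 31.1% of all genes rose and 27.7% fell. In PC2 against Luc 1 rose and 1 fell, against 16.1% and 18.6% of all genes. In PC2 against Non surgery 2 rose and 1 fell, against 31.5% and 31.2%. In Luc against Non surgery, Clcf1, which encodes a ligand of the ciliary neurotrophic factor receptor, rose 1.79-fold to 17.7 ± 1.24 CPM (SD, n = 3). Ctf1, the cardiotrophin gene, fell 2.08-fold from 2.46 ± 0.475 to 1.18 ± 0.372 CPM. In PC2 against Luc, Ctf1 rose 1.91-fold, while Clcf1 and Ebi3 did not pass. In PC2 against Non surgery, Clcf1 rose 1.65-fold and Ebi3 fell 1.3-fold (edgeR, adjusted p = 0.0493). Ebi3 shares 23.4% of its exon bases with Gm16712, and Clcf1 shares 8.17% and Ctf1 4.77% with a neighbour, where reads may be split or left out.

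Of 5 other receptor genes 4 were tested, and Il11ra2 stayed below the filter. In Luc against Non surgery 1 rose and 2 fell, against 31.1% and 27.7% of all genes. In PC2 against Luc 2 rose, against 16.1% of all genes, and 2 missed the threshold. In PC2 against Non surgery 1 rose and 2 fell, against 31.5% and 31.2%. Cntfr, the chain that binds ciliary neurotrophic factor and is known from muscle and nerve, fell 4.4-fold from 18.95 ± 0.459 CPM in Non surgery to 4.30 ± 0.0684 CPM in Luc libraries and stood at 7.12 ± 0.662 CPM in PC2 libraries, 1.65-fold above Luc. Il11ra1, the chain that binds interleukin-11, rose 1.51-fold in Luc against Non surgery and a further 1.3-fold in PC2 against Luc, to 65.8 ± 2.22 CPM, where its ligand gene Il11 fell. Il27ra fell 1.4-fold in Luc and 1.39-fold in PC2 against Non surgery. The 6 markers of skeletal muscle all fell with Cntfr in Luc against Non surgery. In PC2 against Luc, where Cntfr rose, 3 of them rose, 1 (Neb) fell and 2 did not pass. Their summed level was 49030 to 50310 CPM in Non surgery, 18980 to 19360 CPM in Luc and 21490 to 21640 CPM in PC2 libraries. The part of muscle RNA in the fall of Cntfr was not tested.

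The kinases and other STAT genes changed by less than 2-fold. Of 10 genes, 5 rose and 3 fell in Luc against Non surgery, where 31.1% of all genes rose and 27.7% fell. The median log2 fold change was 0.048 against 0.025 for all genes. Stat2, which carries interferon signals, rose 1.43-fold, and Jak3, the kinase of lymphocyte cytokine receptors, fell 1.61-fold. In PC2 against Luc 6 of the 10 fell, against 18.6% of all genes, and the other 4 missed the threshold. The median was -0.15 against 0.008. Among these falls were those of Stat4 (1.37-fold) and Stat2 (1.28-fold). Stat4 shares 26.68% of its exon bases with Gm28177, so its counts are uncertain. Jak1 and Jak2, the kinases that bind the shared receptor chain, had means of 335.5 and 135.6 CPM in Non surgery libraries. Their means were 269.3 and 95.9 CPM in Luc and 229.6 and 84.4 CPM in PC2 libraries. Against Non surgery they fell 1.25-fold and 1.41-fold in Luc, and 1.46-fold and 1.61-fold in PC2. In PC2 against Non surgery 5 of the 10 rose and 4 fell, against 31.5% and 31.2% of all genes.

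The other inhibitors of the path moved in both directions. Of 15 genes, 6 rose and 4 fell in Luc against Non surgery (median -0.062), against 31.1% and 27.7% of all genes (median 0.025). In PC2 against Luc 2 rose and 3 fell (median -0.062), against 16.1% and 18.6% of all genes (median 0.008). In PC2 against Non surgery 4 rose and 6 fell, against 31.5% and 31.2% of all genes. Socs1, a close relative of Socs3, rose 2.72-fold in Luc against Non surgery, from 2.29 ± 0.107 to 6.23 ± 0.17 CPM, and stood at 7.32 ± 0.489 CPM in PC2 libraries, 3.2-fold above Non surgery. Socs2, an inhibitor of growth hormone signalling, rose 2.6-fold in Luc against Non surgery and fell 1.51-fold in PC2 against Luc. Cish, a target of STAT5, fell 2.22-fold in Luc against Non surgery and a further 1.84-fold in PC2 against Luc, to 2.40 ± 0.491 CPM. Pias3, which encodes an inhibitor of STAT3, rose 1.26-fold in PC2 against Luc.

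Genes known as STAT3 targets in other tissues moved in both directions. Of 18, 7 rose and 7 fell in Luc against Non surgery, where 31.1% of all genes rose and 27.7% fell, and the median was -0.042. Junb, which is also an immediate-early gene, rose 7.7-fold from 41.9 ± 4.01 to 322.7 ± 2.27 CPM, and Timp1, the inhibitor of matrix metalloproteinases, rose 2.64-fold, while Lrg1, which neutrophils and liver also express, fell 3.23-fold from 240.8 ± 11.2 to 74.5 ± 3.32 CPM. In PC2 against Luc, 4 of 18 rose and 9 fell, against 16.1% and 18.6% of all genes. The median was -0.082 against 0.008 for all genes. Junb fell 1.82-fold, whereas the acute-phase genes Serpina3n and Hp rose 1.83-fold and 1.48-fold. In PC2 against Non surgery 8 rose and 8 fell, against 31.5% and 31.2% of all genes. The largest changes were again those of Junb (4.22-fold higher), Lrg1 (3.07-fold lower) and Timp1 (2.34-fold higher). Junb shares 7.52% of its exon bases with Prdx2 on the other strand.

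**Figure D4:**
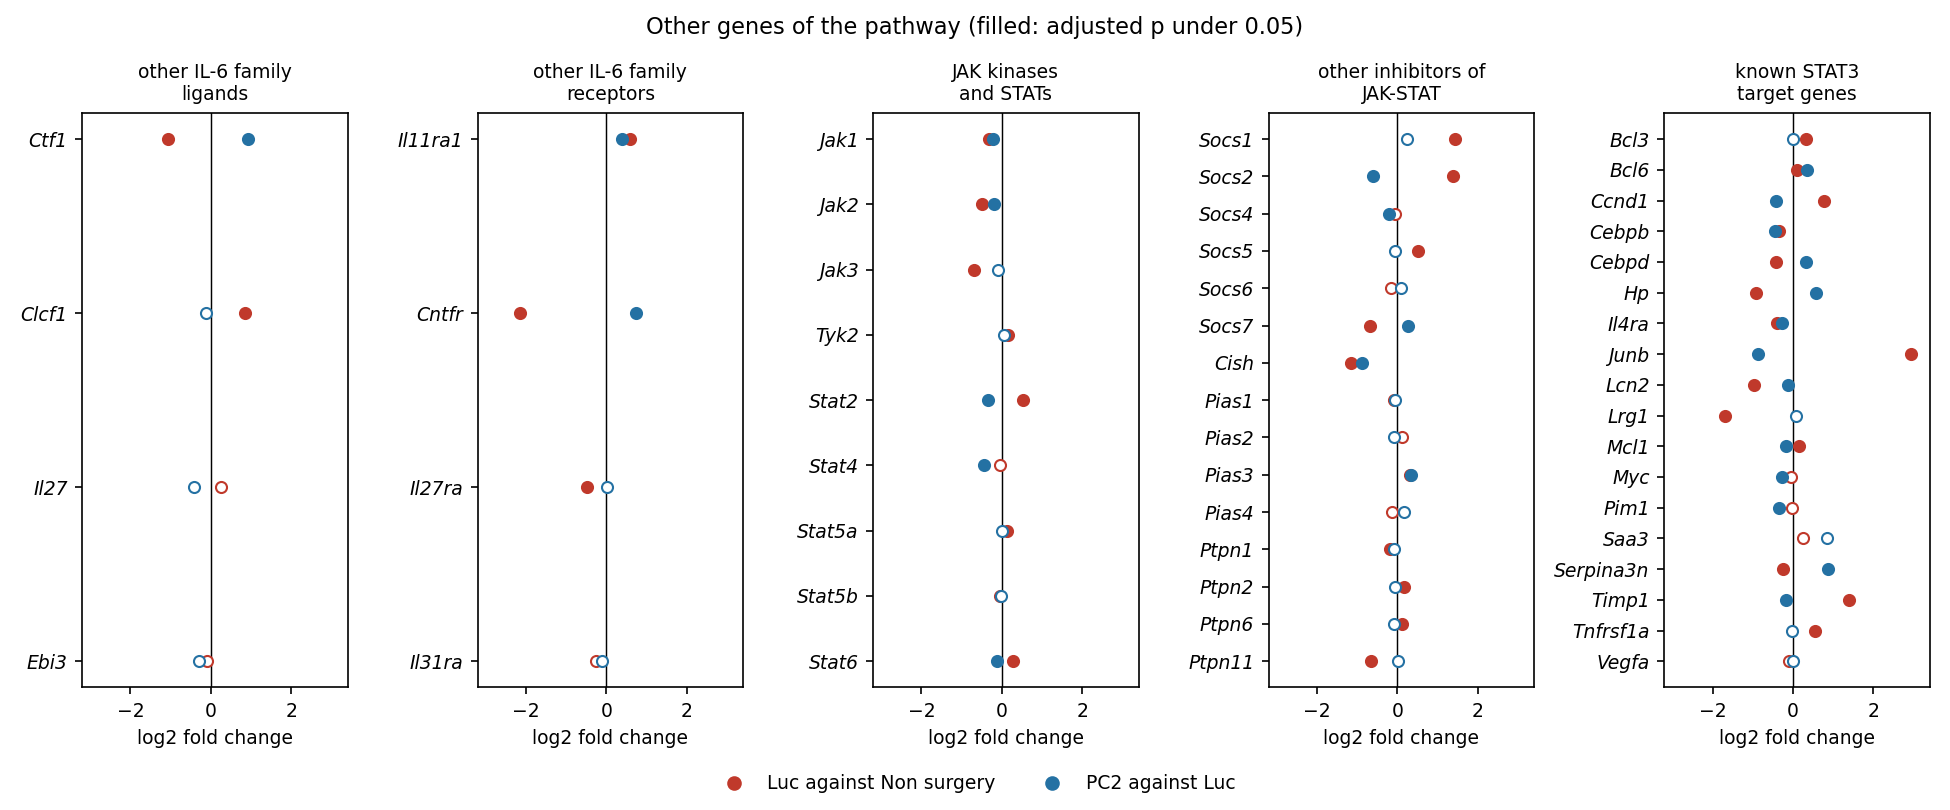
log2 fold changes of tested genes of 5 pathway lists, for Luc against Non surgery (red) and PC2 against Luc (blue); filled points passed an adjusted p of 0.05. Junb, Socs1, Socs2 and Timp1 stand to the right and Cntfr and Lrg1 to the left for Luc against Non surgery, and most blue points lie within 1 log2 unit of 0.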

How the data were processed

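Per the labels' protocols, TRIzol was used for the RNA and the NEBNext Ultra kit, which does not mark strand, for the libraries; the 3 libraries of a group repeat 1 mix of RNA. The deposited values are raw read counts per Ensembl gene ID; HISAT2, HTSeq, DESeq2 and mm10 are named in the submitters' processing notes, and their versions, the annotation release and the strand setting are not given in the sources used here. In every file, HTSeq summary lines (5) stayed out of all totals: reads outside genes were 7.29% to 9.25% and ambiguous reads 5.72% to 6.65% per library. Symbols, positions and exon lengths came from GENCODE M21 (GRCm38), which held 53274 of 53379 IDs.

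All 9 libraries entered 1 edgeR 4.0.16 quasi-likelihood fit in R 4.3.3 (group factor, TMM, filterByExpr with a minimum count of 10), with two-sided contrasts and Benjamini-Hochberg adjustment over 17478 genes at 0.05. Each standard error is |log2 fold change| divided by the root of the F statistic; nearest patterns used log2(CPM + 0.5) of genes with a group mean of at least 5 CPM. CPM and RPKM were computed here. The fit was tested on simulated data. Repeats of a pool differed by more than counting noise (chi-square per degree of freedom 3.94 to 8.67), so no library is a second copy of another. The text names the 10 members, up to 3 called genes with the largest change per pathway list and comparison, and 3 nearest genes for Il6, Osmr and Socs3; some genes that meet this rule are not reported here, though counts over lists include them. Alternatives were DESeq2 1.42.0, median-of-ratios factors, library size only, no filter, 6-library fits, a replicate block and leaving out each library. Promoter motifs were chosen after the windows were read. Members and lists were chosen with earlier results of these data known.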

Additional observations from a re-analysis of the deposited data

How the results depend on the processing

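Il6, Il11 and Lif rested on 9 to 133 counts per library, which limits their precision. Of 360 recomputed member values, 333 kept direction and side of the threshold, 14 lost a call, 7 gained one and 6 changed sign. The sign changes were Il6ra in Luc against Non surgery with library size only (0.04), Lif in PC2 against Luc without Luc replicate 3 (0.077), Lifr in PC2 against Luc without Luc replicate 2 (-0.016) and without PC2 replicate 1 (-0.0), and Stat3 in PC2 against Non surgery without Non surgery replicate 1 (-0.01) and without PC2 replicate 2 (-0.002); none of these 6 passed the threshold. With each replicate left out in turn, these Lif, Lifr and Stat3 values ran from -0.569 to 0.077, from -0.016 to 0.042 and from -0.01 to 0.029. In Luc against Non surgery edgeR called 0 members lower (1 at an unadjusted p under 0.05, and 0 with DESeq2). That count was 1, namely Il6ra, with median-of-ratios factors, with no filter on low counts and with only the 6 libraries compared; the cause was not tested. Counts of members higher ran from 7 to 9 in this comparison, counts lower from 5 to 6 in PC2 against Luc, and counts higher from 4 to 7 in PC2 against Non surgery. Library size only moved the split of all called genes from 5431 higher and 4848 lower to 7754 and 3304 in Luc against Non surgery, and from 5505 and 5447 to 7607 and 3761 in PC2 against Non surgery. Correlations of deviations from the group mean ran from -0.164 to 0.168 over the 9 same-numbered pairs of libraries. For differently numbered pairs they ran from -0.172 to 0.193. These ranges gave no sign that the numbers pair the samples. The replicate block left 8 members higher, 6 lower and 5 higher in the 3 comparisons in turn.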
